A study of Arabidopsis thaliana with 12 samples.

Results

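Transcript levels of 10 genes of the ZIP family of metal transporters were followed in roots and rosettes of Arabidopsis thaliana plants that overexpressed the peptide gene IMA1. The genes were ZIP1 to ZIP7, ZIP9, ZIP11 and IRT3, taken by locus identifier and not by any measured value, 10 of the 33607 genes in each deposited table. IMA1 OE plants (35S promoter driving the IMA1 open reading frame, line #7-4) were set against EYFP OE plants (35S promoter driving the fluorescent protein EYFP), both in the Columbia-0 background and each represented by 1 line. All seedlings grew for 10 days on full ES medium, 25 to a plate, and were harvested 72 hours after transfer. EYFP OE plants went to full medium, and IMA1 OE plants either to full medium or to medium without Fe and with 100 µM FerroZine, an Fe chelator. Roots and rosettes were taken from each, which gave 6 groups of 2 libraries. EYFP OE plants on Fe-deficient medium were not analysed here, so in every comparison with Fe-deficient IMA1 OE plants the effects of line and medium cannot be told apart. No label gives a difference in zinc supply between the samples, so the word zinc-responsive, used of these genes in the literature, could not be checked.

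ZIP proteins carry divalent metal ions into the cytosol from outside the cell or from compartments within it. In Arabidopsis, zinc shortage is read by the transcription factors bZIP19 and bZIP23, which bind the zinc deficiency response element, a palindromic promoter motif, and activate several ZIP genes and IRT3. IRT1, another ZIP protein, is the main Fe importer of the root epidermis and also lets in zinc, manganese, cobalt and cadmium.

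The core of the zinc deficiency response element was looked for first, because it is the one regulatory sequence known to join members of this family. The 8 letters TGTCGACA, which read the same on both strands, occurred within 250 bases before the gene start in 2 of the 10 genes, ZIP4 and IRT3, and within 1000 bases also in ZIP5. The same core lies in 0.262% of 27444 protein-coding promoters at 250 bases and in 1.03% at 1000 bases. The stretches around these cores are given on the strand of each gene, with the core in capitals, from the RefSeq assembly TAIR10.1.
ZIP4 (AT1G10970), chr1:3667141-3667208, minus strand: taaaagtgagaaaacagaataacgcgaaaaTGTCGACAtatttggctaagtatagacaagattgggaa
IRT3 (AT1G60960), chr1:22447300-22447353, minus strand: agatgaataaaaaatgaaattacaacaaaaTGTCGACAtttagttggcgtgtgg
ZIP5 (AT1G05300), chr1:1548643-1548710, minus strand: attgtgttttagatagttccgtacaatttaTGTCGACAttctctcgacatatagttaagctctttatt
The core began 39 bases before the start of ZIP4, 24 bases before that of IRT3 and 831 bases before that of ZIP5. In all 3 it stood within the same 10 letters, ATGTCGACAT. ZIP4 and IRT3 each had 1 further copy between the gene start and the start codon, a region in which 0.182% of 27444 genes carried one. The remaining 7 genes had no exact copy of these 8 letters in 1000 bases. Copies with a mismatch were not looked for, so these genes may still carry a variant of the element. The E-box CANNTG, a short motif bound by bHLH factors, which include regulators of the Fe deficiency response, was in 5 of the 10 promoters at 250 bases, beside 55.3% of all promoters, and in 9 of 10 at 1000 bases, beside 96.2%. These matches describe the letters of each window and are not evidence of binding.

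The values are the authors' normalized signal, which has no unit and is scaled by gene length, so that levels can be set side by side between genes. Replicate libraries correlated across genes with Pearson's r of 0.971 to 0.989. The labels do not say that replicates came from separate plantings, so p-values measure the spread between these libraries only, and the read depth of the libraries is unknown. IMA1 (AT1G47400) had group means of 326.8 to 414.1 in IMA1 OE and 4.18 to 5.525 in EYFP OE, as the line labels say. The tissue labels fitted their markers: 4 root genes summed to a signal between 2322 and 4226 in root libraries and between 84.75 and 187.3 in rosette libraries, and 5 leaf genes to 238.5 to 566.2 in roots and at least 29450 in rosettes.

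In EYFP OE roots, IRT3 and ZIP3 were the most abundant of the 10 transcripts, with mean signals of 54.34 ± 11 and 53.41 ± 8.84 (SD, n = 2) whose libraries overlapped. ZIP2 followed at 19.11 ± 2.6 and ZIP4 at 11.66 ± 1.24, each clear of its neighbours. ZIP1, ZIP5, ZIP11 and ZIP6 formed a lower tier with means from 8.345 down to 5.335, in which neighbours overlapped. ZIP9 was low, at 1.20 and 1.25, and ZIP7 stood at 0.01 in every root library of the study, the floor that the tables give to unread genes of its length.

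Rosettes held another order. ZIP11, which restores growth to zinc-uptake mutants of yeast, led in EYFP OE rosettes at 19.51 ± 3.97 (SD, n = 2), followed by IRT3 at 13.43 ± 1.13 and ZIP7 at 6.205 ± 1.2. ZIP1 and ZIP4 stood at 5.3 and 4.54, and ZIP5 and ZIP6 at 2.69 and 2.43, each pair with little between them. ZIP3, ZIP2 and ZIP9 were under 1 in all rosette libraries. ZIP3 had 0.15 and 0.53 in EYFP OE rosettes and ZIP2 0.35 and 0.29, levels too low for a ratio to roots. The EYFP OE mean of IRT3 was 4.05 times higher in roots, and that of ZIP11 3.05 times higher in rosettes. The root and rosette tables were normalized separately and their RNA differed in integrity (RIN 9.8 to 10 in roots, 8.3 to 8.7 in rosettes, per the labels), so these ratios are descriptions without a test. For all 10 genes the EYFP OE libraries of the tissues did not overlap. The share of all genes with such a gap was not counted, so this is not read as a trait of the set.

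**Figure D1:**
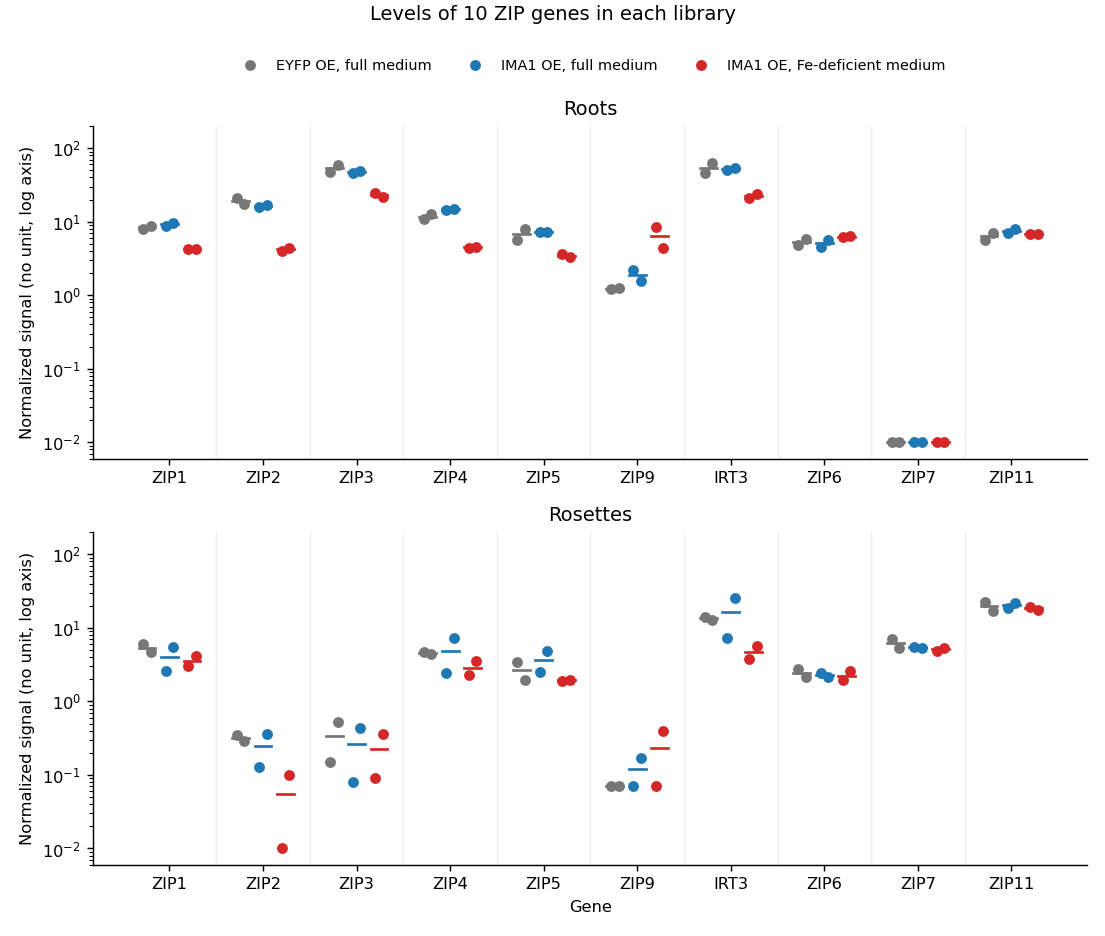
Normalized signal (log axis) of each gene in each library, roots above and rosettes below; points are libraries, bars are means of n = 2. In roots the red points of ZIP1 to ZIP5 and IRT3 lie below the grey and blue ones and those of ZIP9 above, and ZIP7 is at 0.01 throughout; EYFP OE values are from the full-medium tables.

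The first comparison set IMA1 OE roots against EYFP OE roots, both on full medium. No further line of either construct was available, so IMA1 overexpression cannot be told apart from other differences between the lines. None of these genes moved past the threshold. Levels of IRT3, the plasma membrane transporter of zinc and Fe, were 46.59 and 62.10 in EYFP OE and 51.02 and 54.29 in IMA1 OE, one range inside the other. ZIP3, a zinc-uptake transporter, stood at 47.16 and 59.66 against 46.06 and 49.55, also overlapping. ZIP2, a plasma membrane zinc and manganese transporter of the root stele, had signals of 20.95 and 17.27 in EYFP OE against 16.01 and 16.90 in IMA1 OE, so both IMA1 OE libraries were slightly lower.

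ZIP4 gave 10.79 and 12.54 in EYFP OE against 14.46 and 14.90 in IMA1 OE, 0.31 higher on the log2 scale (SE 0.10, limma p 0.0264, adjusted p 1). ZIP9 was at 1.20 and 1.25 against 2.18 and 1.57, 0.36 higher on the log2 scale (SE 0.17, adjusted p 1 in limma). In both the IMA1 OE libraries lay above those of EYFP OE. ZIP1, at 7.87 and 8.82 against 8.72 and 9.68, ZIP5, ZIP6 and ZIP11 overlapped between the lines.

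Of the 9 genes with enough signal to be tested, 0 passed the limma threshold of an adjusted p under 0.05 (Benjamini-Hochberg over all genes tested), beside 0.0355% of all genes, and 1 (ZIP4) had an unadjusted p under 0.05. Both IMA1 OE libraries were below both EYFP OE libraries for 1 of the 9 genes, where the share of all genes was 16.2%, and above for 2 of 9, where it was 13.8%. The median log2 change of the 10 genes was 0.05, beside -0.010 over all genes tested. Log2 changes are differences of log2(value + 1) and understate the change of low genes. In the authors' deposited table the p-value of ZIP4 was 0.56 and that of ZIP2 0.66.

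The second comparison set Fe-deficient IMA1 OE roots against EYFP OE roots on full medium, with line and medium differing together. Here ZIP2, ZIP4, IRT3 and ZIP3 fell past the threshold, each by at least 2.3-fold, ZIP1 and ZIP5 were lower in both libraries without passing, and ZIP9 was higher in both without passing.

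ZIP2 showed the largest decrease. Its signal was 20.66 and 16.97 in the control libraries and 3.97 and 4.44 in Fe-deficient IMA1 OE. The lower EYFP OE library was far above the higher IMA1 OE library. The mean was 4.47-fold lower (log2 change -1.92, SE 0.12, limma adjusted p 0.00558), and this change ranked 12 from the lowest among 19673 genes tested.

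ZIP4, the zinc-deficiency-induced transporter with the core element beside its start, was at 10.57 and 12.30 in EYFP OE against 4.43 and 4.58 in Fe-deficient IMA1 OE. The groups were well apart and the IMA1 OE libraries nearly equal. The mean was 2.54-fold lower (log2 change -1.17, SE 0.11, limma adjusted p 0.0192).

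IRT3, which carries the same core 24 bases before its start, was at 46.37 and 61.84 in EYFP OE against 20.68 and 23.47 in Fe-deficient IMA1 OE, 2.45-fold lower (log2 change -1.24, SE 0.15, limma adjusted p 0.0464). ZIP3, which lacks it in the 1000 bases read, was at 46.77 and 59.39 against 24.23 and 21.99, 2.3-fold lower (log2 change -1.16, SE 0.13, limma adjusted p 0.0371). For both genes the spread between the EYFP OE libraries was wider than that between the IMA1 OE libraries, and the groups did not overlap. IRT3 and ZIP3 stayed the most abundant of the 10 transcripts, at means of 22.07 and 23.11, while ZIP2, next after them in EYFP OE, lay below ZIP11, ZIP9, ZIP6, ZIP4 and ZIP1 in mean signal, its libraries overlapping those of ZIP9, ZIP4 and ZIP1.

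ZIP1, a zinc transporter described at the vacuolar membrane, was at 7.70 and 8.63 in EYFP OE against 4.29 and 4.20 in Fe-deficient IMA1 OE. Its log2 change of -0.80 (SE 0.10, limma adjusted p 0.0525) just missed the threshold. The annotation has ZIP1 overlap ALIS1 on the other strand, and the counting strand is not given in the sources used here, so reads of the pair may have been mixed. ZIP5, with the core 831 bases before its start, was at 5.52 and 7.85 against 3.60 and 3.31 (log2 change -0.77, SE 0.17, limma adjusted p 0.221). Both genes were lower in each IMA1 OE library than in either EYFP OE library.

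ZIP9, a bZIP19 target under zinc shortage in Arabidopsis, went the other way, from 1.17 and 1.22 in EYFP OE to 8.37 and 4.43. The IMA1 OE libraries were both higher, the first well above the second. The mean was 5.36-fold higher (log2 change 1.70, SE 0.27, limma adjusted p 0.0998), and the call was missed.

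The differences of ZIP6 and ZIP11 were small. ZIP6 was at 4.66 and 5.71 against 6.15 and 6.29 (log2 change 0.23, SE 0.12, limma adjusted p 0.675), and it overlaps the potassium transporter gene KT1 on the other strand, with the same doubt as for ZIP1. ZIP11 was at 5.54 and 6.88 against 6.87 and 6.71, with overlapping groups (log2 change 0.12, SE 0.12, limma adjusted p 0.848). ZIP7 was at 0.01 in all 4 libraries and could not be tested.

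**Figure D2:**
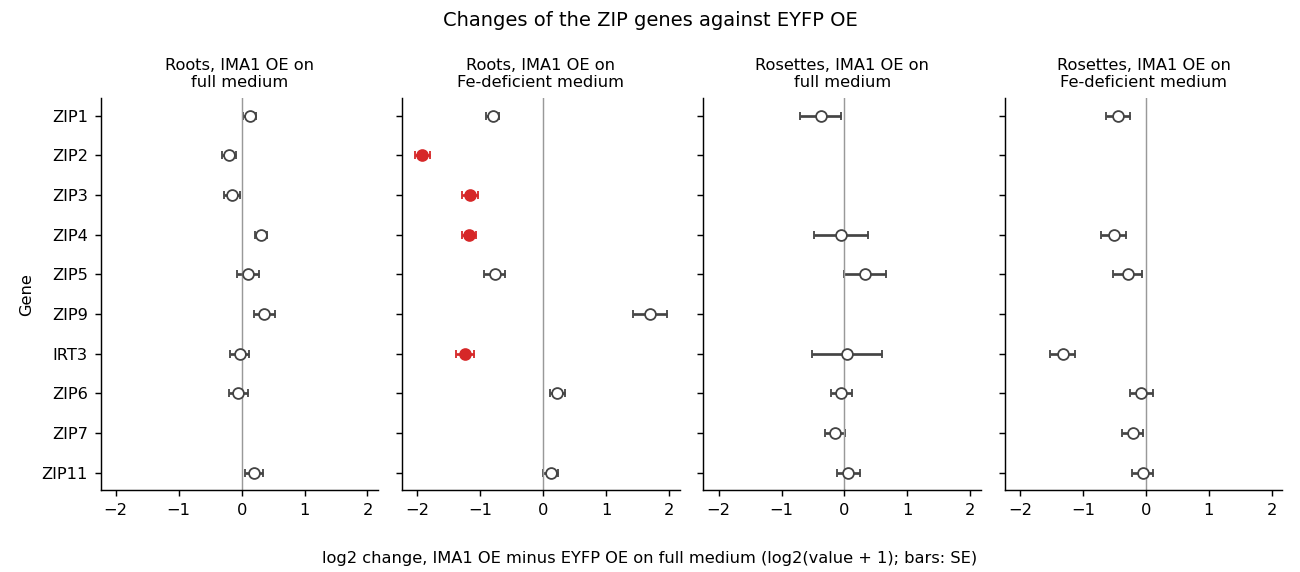
Log2 change of each tested gene (IMA1 OE minus EYFP OE on full medium, on log2(value + 1), bars are SE) in the 4 comparisons; filled red points passed the limma threshold. Only the panel for Fe-deficient IMA1 OE roots has filled points, for ZIP2, ZIP3, ZIP4 and IRT3, with ZIP9 at 1.70 on the far side of 0.

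Counted together, 4 of the 9 tested genes were called lower, beside 0.147% of all genes, and 0 were called higher, beside 0.773%. Both IMA1 OE libraries were below both EYFP OE libraries for 6 of 9 genes, where the share of all genes was 21.6%, and above for 2 of 9 (ZIP6 and ZIP9), where it was 17.8%. The median log2 change of the 10 genes was -0.79, beside -0.016 over all genes tested. Each of the 4 calls was lost without certain single libraries. ZIP2 was lost without IMA1 OE replicate 1 or 2 (limma adjusted p 0.0849 and 0.0595), and ZIP4 was lost without any one of the 4 libraries (0.0829 without EYFP OE replicate 1 to 0.191 without IMA1 OE replicate 1). ZIP3 and IRT3 were lost without EYFP OE replicate 2 (limma adjusted p 0.101 and 0.11), IMA1 OE replicate 1 (0.254 and 0.333) or IMA1 OE replicate 2 (0.179 and 0.165). Without the filter on low values, which adds unread genes to the fit, all 4 were lost (0.167 to 0.47). Without the intensity trend ZIP3 and IRT3 were lost (0.0803 and 0.1). No log2 change of the 4 genes was closer to 0 than -0.99 under any of these. Exact permutation of 2 against 2 libraries cannot give a two-sided p below 0.333, so single genes rest on the model across genes. Leaf markers summed to 566.2 and 480 in the EYFP OE roots and 238.5 and 344.4 in the Fe-deficient IMA1 OE roots. The shift was not particular to this comparison. On full medium they summed to 564.6 and 479 in EYFP OE roots and 266.5 and 402.3 in IMA1 OE roots. Of the 4 root markers, PYK10 was at 2254.44 in both EYFP OE libraries and at 2845.9 and 4113.01 in Fe-deficient IMA1 OE. EXPA7, COBL9 and CASP1 overlapped between these groups. On full medium PYK10 was at 2202.7 in both EYFP OE libraries and at 3049.66 and 4079.54 in IMA1 OE. EXPA7 and COBL9 overlapped there too, and CASP1 was at 79.12 and 78.68 against 80.42 and 79.38. Identical values in different libraries also occurred for the leaf markers RBCS1A and LHCB1.3 in rosettes on full medium, so the highest signals may not be exact levels. The part of the leaf and root markers in the result was not tested, and fewer cells of a type and less RNA per cell cannot be told apart in such samples. In the authors' deposited table the p-values of ZIP2, ZIP3 and IRT3 were printed as 0.0, that of ZIP4 was 0.08 and that of ZIP9 was 0.06.

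**Figure D3:**
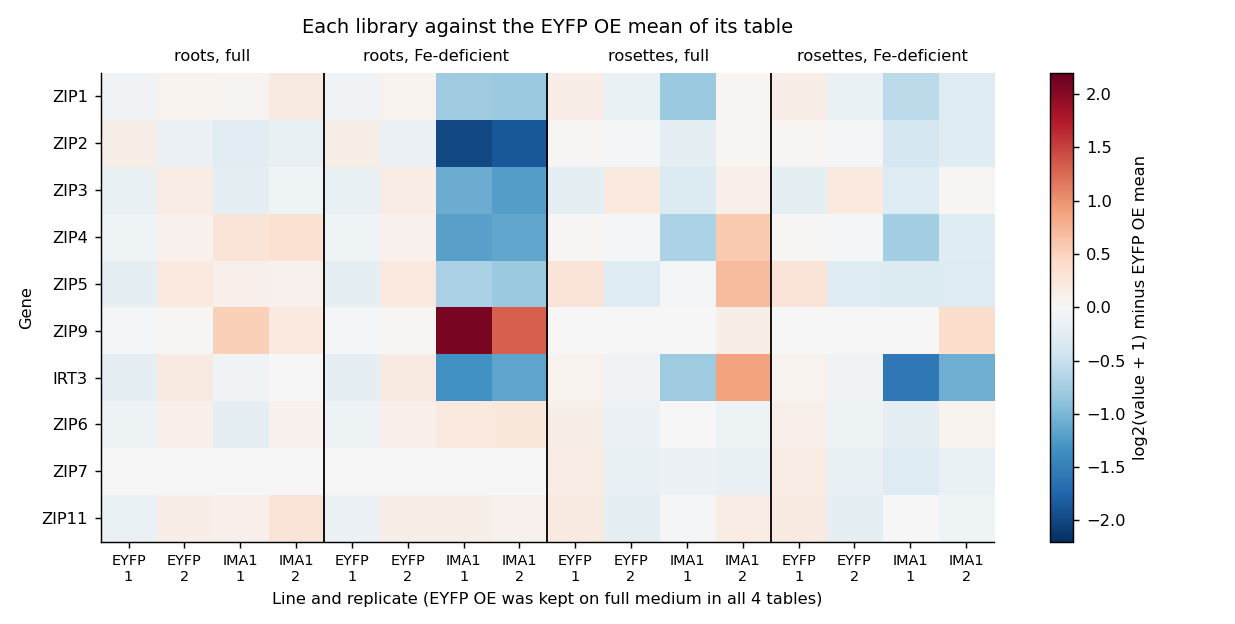
Colour gives log2(value + 1) of each library minus the EYFP OE mean of its table, with genes in rows and the line and replicate in columns. Both Fe-deficient IMA1 OE root libraries are blue for ZIP1 to ZIP5 and IRT3 and red for ZIP9, and in rosettes on full medium the IMA1 OE replicates have opposite colours for ZIP4 and IRT3.

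The 2 root comparisons share their EYFP OE libraries, so their values are given side by side without a correlation. The log2 change of ZIP2 was -0.20 with IMA1 OE on full medium and -1.92 with IMA1 OE on Fe-deficient medium. That of ZIP4 was 0.31 and -1.17, that of IRT3 -0.03 and -1.24, that of ZIP3 -0.15 and -1.16, and that of ZIP9 0.36 and 1.70. The difference between the media within IMA1 OE roots was thus -1.73 for ZIP2, -1.48 for ZIP4, -1.21 for IRT3, -1.01 for ZIP3, -0.93 for ZIP1, -0.87 for ZIP5 and 1.34 for ZIP9, and 0.28 and -0.08 for ZIP6 and ZIP11. It was formed across separately normalized tables and was not tested.

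In rosettes on full medium the 10 genes did not differ between the lines beyond the spread of the replicates. IRT3 had signals of 14.23 and 12.63 in EYFP OE against 7.34 and 25.49 in IMA1 OE, with the IMA1 OE replicates on either side of the control. ZIP4 was spread in the same manner, at 4.65 and 4.43 against 2.44 and 7.27. The second IMA1 OE replicate was 3.47 times the first for IRT3, 2.98 times for ZIP4, 2.14 times for ZIP1 and 1.91 times for ZIP5. It was the higher one for 8 of the 10 genes, but ZIP2, ZIP3 and ZIP9 among these were under 1 in both replicates. The share of all genes that were higher in it was not counted. ZIP11 and ZIP7, the leaf-enriched members, differed little between those replicates, at 18.72 and 21.70 for ZIP11 and 5.55 and 5.37 for ZIP7.

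Of the 10 genes, 7 could be tested there and 0 passed the limma threshold or an unadjusted p under 0.05, beside 0.0107% of all genes past the threshold. Groups did not separate for any of the 7, with IMA1 OE below in 18.5% and above in 13.1% of all genes. The log2 change of IRT3 was 0.04 with an SE of 0.55, and without IMA1 OE replicate 1 or 2 it was 0.88 or -0.79, so 1 library decides its sign. The same held for ZIP4, at 0.58 or -0.69. ZIP2, ZIP3 and ZIP9 were too low to test.

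Fe-deficient IMA1 OE rosettes were compared with EYFP OE rosettes on full medium, again with line and medium differing together. In this table the headings of the IMA1 OE columns name +Fe, whereas the labels tie the table to Fe-deficient samples; the labels were followed, and every value of these libraries carries that doubt. IRT3 had signals of 13.99 and 12.43 in EYFP OE against 3.79 and 5.70 in IMA1 OE, and the groups were clearly apart. The mean was 2.78-fold lower and the log2 change -1.32 (SE 0.20, limma p 0.00164), but with an adjusted p of 0.648 it did not pass over all genes. It ranked 23 from the lowest among 18691 genes tested.

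ZIP4 was at 4.56 and 4.35 against 2.25 and 3.52 (log2 change -0.51, SE 0.20, limma adjusted p 0.98). ZIP1 was at 5.85 and 4.58 against 3.07 and 4.08 (log2 change -0.44, SE 0.19, limma adjusted p 0.989). In both genes the IMA1 OE libraries were below those of EYFP OE by margins smaller than the gap between replicates of one line. ZIP5 had 3.36 and 1.94 against 1.91 and 1.95, ZIP6 2.69 and 2.11 against 1.94 and 2.55, ZIP7 6.92 and 5.26 against 4.81 and 5.38, and ZIP11 21.98 and 16.45 against 19.04 and 17.72, all overlapping.

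Of 7 tested genes 0 passed, beside 0.00535% of all genes, and 1 (IRT3) had an unadjusted p under 0.05. IMA1 OE was below EYFP OE without overlap for 3 of 7, where the share of all genes was 19.5%, and above for 0, where it was 13.8%. Among the 3 genes too low to test, ZIP2 was at 0.35 and 0.28 against 0.01 and 0.10. The median log2 change of the 10 genes was -0.25, beside -0.028 over all genes tested. The difference between the media within IMA1 OE rosettes, not tested, was -1.37 for IRT3, -0.62 for ZIP5 and -0.45 for ZIP4, and from -0.23 to 0.13 for the others.

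Whether roots and rosettes differed in their changes was tested with an interaction term over the 8 libraries of a root and a rosette table. With IMA1 OE on full medium 0 of the 10 genes passed the limma threshold, beside 0.0189% of all genes. None had an unadjusted p under 0.05. ZIP2, ZIP3 and ZIP9, too low in rosettes, and ZIP7, at 0.01 in roots, entered that test through 1 tissue alone. For them the term could not be read, so this result covers the other 6 genes. With Fe-deficient IMA1 OE 0.313% of all genes passed. The term again could not be read for ZIP2, ZIP3 and ZIP9, which entered through root values alone, or ZIP7, which entered through rosette values. ZIP2 had a root minus rosette difference of -1.61 (SE 0.19, limma adjusted p 0.0307). Its rosette signal was 0.35 or less in every library, where log2(value + 1) leaves little room for a fall, so this value is not counted as a difference between tissues. With a pseudocount of 0.1 the difference was -0.65 (limma adjusted p 0.938), and the call was lost when any 1 of the 8 libraries was left out. ZIP9 had a difference of 1.51 (SE 0.37, limma adjusted p 0.331) and ZIP3 one of -1.03 (SE 0.28, limma adjusted p 0.403), with the same limit in rosettes. Of the 6 genes tested in both tissues 0 passed in limma, and 1 (ZIP4, difference -0.66, SE 0.24, adjusted p 0.616) had an unadjusted p under 0.05. IRT3 had nearly equal log2 changes in roots and rosettes, -1.24 and -1.32, with a difference of 0.08 (SE 0.28, limma adjusted p 0.998). A p-value of that size does not show that the tissues responded alike.

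**Figure D4:**
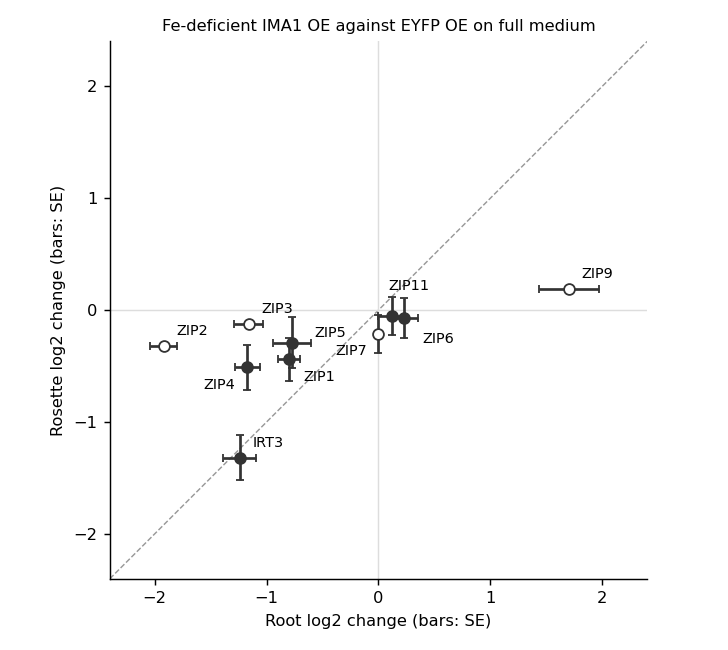
Log2 change of each gene in rosettes against that in roots, Fe-deficient IMA1 OE minus EYFP OE on full medium, with SE bars where tested; open points were too low to test in 1 tissue and the dashed line marks equal changes. IRT3, at -1.24 and -1.32, lies near that line, while ZIP2, ZIP3 and ZIP9, too low to test in rosettes, have rosette changes of -0.32, -0.12 and 0.19.

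Other zinc and ZIP genes give the setting of these values in Fe-deficient IMA1 OE roots. Of 5 further ZIP family genes 3 passed the filter and were called higher, beside 0.773% of all genes. IRT1, the Fe importer, went from 13.14 and 22.82 in EYFP OE to 980.2 and 759 (log2 change 5.56, limma adjusted p 0.00196), against the direction of ZIP1 to ZIP5 and IRT3. IRT2, another Fe-regulated ZIP gene of the root, rose by a log2 change of 2.94 (limma adjusted p 0.00131). ZIP8, annotated as a transcribed pseudogene, went from 0.20 in both EYFP OE libraries to 15.52 and 13.74. It passed the filter through the IMA1 OE libraries alone, so its call (limma adjusted p 0.000674) adds nothing to these values. ZIP10 and ZIP12, the other 2, were at the floor in roots. Both have the core element, 116 and 166 bases before their annotated start. That start is the start codon itself, so these distances are not like those of ZIP4 and IRT3.

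Among 16 zinc regulators and partners, 14 were tested, 3 rose, beside 0.773% of all genes, and 1 fell, beside 0.147%. MTP3, which moves zinc into the vacuole, rose from 8.36 and 7.04 to 118.64 and 86.37 (log2 change 3.56, limma adjusted p 0.00196). The transcript of HMA3 rose from 1.36 and 1.58 to 26.03 and 17.45 (log2 change 3.18, limma adjusted p 0.00492). That of NAS1, which makes the metal chelator nicotianamine, rose from 51.91 and 69.19 to 271.99 and 223.23 (log2 change 2.02, limma adjusted p 0.0121). HMA2, the pump that loads zinc into the xylem, fell from 16.30 and 18.69 to 4.91 and 6.97 (log2 change -1.43, limma adjusted p 0.0434). With IMA1 OE on full medium its root log2 change was nearly the same, -1.37 (limma adjusted p 0.354). Those of MTP3, HMA3 and NAS1 were there 1.79, 0.95 and 1.39, also without passing. The call of HMA2 was lost without any 1 of the 4 libraries (0.0595 without IMA1 OE replicate 2 to 0.234 without EYFP OE replicate 2), that of NAS1 without IMA1 OE replicate 1 or 2 (0.14 and 0.0768) and that of HMA3 without EYFP OE replicate 1 (0.0515). HMA2 and HMA3 thus moved in opposite directions, as did the 4 called ZIP genes and IRT1. BZIP19, the zinc sensor gene, had a log2 change of 0.35 (limma adjusted p 0.132) and BZIP23 one of -0.03, and neither passed.

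In the 3 remaining comparisons 0 of these further genes passed. The largest log2 changes were those of IRT1 and MTP3 in roots on full medium (3.0 and 1.79, limma adjusted p 0.128 and 0.0637) and of PCR2, a zinc exporter gene, and NAS3, a nicotianamine synthase gene, in rosettes on full medium (1.74 and 1.59, limma adjusted p 0.327 and 0.15). In the table of Fe-deficient IMA1 OE rosettes they were those of PCR2 (1.43, limma adjusted p 0.648) and of IRT1 (1.02), which was at 0.01 in both EYFP OE libraries and at 1.25 and 0.86 in IMA1 OE and was too low to test.

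Summed per library, the 10 genes gave 149 and 180.8 in EYFP OE roots and 82.6 and 79.43 in Fe-deficient IMA1 OE roots. The sums of the lines did not overlap. On full medium they were 150.7 and 182.6 in EYFP OE and 157.2 and 167.8 in IMA1 OE, one range inside the other. As a share of the summed signal of all 15 ZIP family genes, the 10 genes made up 90.6% and 87.7% in EYFP OE roots, 48.4% and 54.1% in IMA1 OE roots on full medium and 7.48% and 9.09% in Fe-deficient IMA1 OE roots. IRT1 alone gave 88.7% and 86.9% of that sum in the last group. On full medium the share was thus lower in IMA1 OE although the sums of the 10 genes overlapped.

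**Figure D5:**
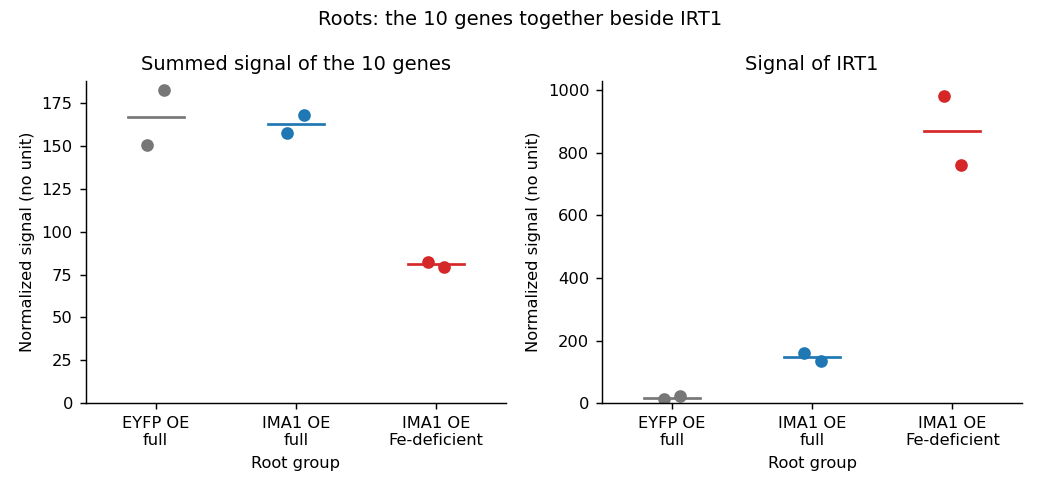
Summed normalized signal of the 10 genes (left) and signal of IRT1 (right) in each root library, both axes from 0; points are libraries and bars are means of n = 2. The sum lies between 150.7 and 182.6 in both groups on full medium and at 82.6 and 79.43 in Fe-deficient IMA1 OE, where IRT1 is at 980.2 and 759.

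Within the set, levels over the 6 root libraries moved in step for the genes that fell. Pearson's r of log2(value + 1) was 0.994 between ZIP1 and ZIP4, 0.983 between ZIP3 and IRT3 and 0.956 between ZIP2 and IRT3. ZIP9 ran against them, with r of -0.953 to ZIP2 and -0.936 to IRT3. ZIP6 and ZIP11 followed neither closely, with r of -0.564 and 0.148 to IRT3. In the 6 rosette libraries ZIP4 and IRT3 had an r of 0.930 and ZIP5 and IRT3 one of 0.835. These coefficients are descriptions over n = 6 libraries that fall into 3 groups of 2 and come from 2 separately normalized tables. The genes that fell and ZIP9 were told apart by the Fe-deficient root libraries, which are among the 6. High r among the genes that fell, and negative r to ZIP9, thus follow largely from that choice and are no evidence of shared control.

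Across all 12 libraries, with each tissue centred on its own mean, the genes most like IRT3 among 21326 were FSD1, a superoxide dismutase gene (r = 0.942), AT1G29030 (r = 0.904) and AT5G02050 (r = 0.901). Those most like ZIP2 were AT4G28790 (r = 0.954), CYP702A6 (r = 0.936) and RAP74 (r = 0.931), and those most like ZIP9 were AT3G47040 (r = 0.988), ROPGEF10 (r = 0.978) and AT3G14470 (r = 0.976). For ZIP2, whose rosette values were near the floor, r to AT4G28790, CYP702A6 and RAP74 was 0.986, 0.949 and 0.960 in roots and 0.411, 0.587 and 0.717 in rosettes. For ZIP9, also near the floor in rosettes, r to AT3G47040, ROPGEF10 and AT3G14470 was 0.999, 0.985 and 0.999 in roots. In rosettes it was 0.736, 0.718 and 0.658. For IRT3 and FSD1 r was 0.952 in roots and 0.936 in rosettes. With so many genes and 12 libraries, high values arise readily, and they say nothing of shared function.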

How the data were processed

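The 4 deposited tables, 1 per comparison, hold the authors' normalized signal for each gene in each library, with TMM in the table names and no unit or read depth. Genes with a single value in all 4 libraries had floors that fell with gene length (Spearman -0.92), so the signal was read as length-scaled. The authors also deposited a p-value (Z-test) and a log2 fold change, per the file headers. The submitters' processing notes name TAIR10, bcl2fastq 1.8.4, Trimmomatic 0.35, Bowtie2 2.0.6, edgeR 3.12.1 and limma 3.26.9, without their roles.

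Columns were assigned through headings and labels. Values were analysed as log2(value + 1). Genes at 1 or more in at least 2 of 4 libraries were tested per table with limma 3.58.1 in R 4.3.3 (eBayes with intensity trend, two-sided, Benjamini-Hochberg over tested genes, threshold 0.05), after tests on simulated data. Promoters were read from RefSeq TAIR10.1 (Python 3.11.15). Alternatives were the pseudocount, filters, trend, scaling, replicate block and left-out libraries. The genes and lists were chosen with earlier results of these data known. Named genes are the 10 members, further zinc genes past the threshold (or the 2 largest changes where none passed), the 3 genes most like each of the 3 members with the largest changes, and IMA1. Comparisons that share EYFP OE libraries are not independent.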

Additional observations from a re-analysis of the deposited data

Results flagged for a closer look

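The interaction term for ZIP2 with Fe-deficient IMA1 OE plants, root minus rosette, passed the threshold at -1.61 on the log2(value + 1) scale (SE 0.19, limma adjusted p 0.0307), but it does not show a difference between the tissues. ZIP2 entered the test through its root values alone, and its rosette values of 0.35 or less left little room for a fall. The root log2 change was -1.92 and the rosette one -0.32. Over 11 alternatives the adjusted p ran from 0.0221 to 0.938 and the call held in 1 of them, the fit without the intensity trend. With n = 2 per group, no library could be tested for standing apart.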

How the results depend on the processing

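Depth is unknown, 2 libraries a group limit every call, and the cause of the shifts below was not tested. In Fe-deficient IMA1 OE roots the number of the 10 genes past the limma threshold was 4, but 0 without the filter on low values, 2 without the intensity trend (ZIP2 and ZIP4) and 0 to 3 with a library left out. Their median log2 change of -0.79 was -0.92 with a pseudocount of 0.1 and ran from -0.93 to -0.64 with a library left out. On full medium the root median of 0.05 ran from -0.03 to 0.19. The test between tissues had 1 call with Fe-deficient IMA1 OE, ZIP2, which its low rosette values leave unreadable, and 0 calls at a pseudocount of 0.1, with the filter passed in both tables, with the replicate block or with any library left out. The labels share replicate numbers but do not say that they mark a batch. Deviations of same-numbered libraries correlated at 0.24 to 0.45. With the number as a replicate block, 6 of the 10 genes passed in Fe-deficient IMA1 OE roots, ZIP1 (adjusted p 0.0483) and ZIP9 (0.0497) being added.

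Counts over all genes moved as follows. Roots, full medium, 7 genes: 141 without filter, 2 with the stricter filter (at least 1 in all 4 libraries), 16 with the replicate block, 0 to 4 with a library left out. Roots, Fe-deficient IMA1 OE, 181 genes: 120 without trend, 323 with the block, 55 to 80 with a library left out. Rosettes, full medium, 2 genes: 1 at the lower pseudocount, 113 without filter, 0 with the stricter filter, 60 with the block, 0 to 10 with a library left out. Rosettes, Fe-deficient IMA1 OE, 1 gene: 130 without filter, 0 with the stricter filter, 0 to 4 with a library left out. The tissue difference on full medium, 4 genes, gave 1 with the filter passed in both tables, 0 with the block and 0 to 17 with a library left out. With Fe-deficient IMA1 OE, 66 genes, it gave 33 at the lower pseudocount, 20 with the filter passed in both tables and 30 to 94 with a library left out. Of 7 further zinc genes called in Fe-deficient IMA1 OE roots, tested so after the data were seen, 6 lost the call without the filter. HMA2 lost it also without the trend (0.0793). The gene that kept it was ZIP8, which had passed the filter through the IMA1 OE libraries alone, so its call adds nothing.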
